A study of Mus musculus with 22 samples.

Results

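The bacterial communities of lung tissue and of colon contents were compared in the mice labelled naive in a study of resveratrol (RES) in ovalbumin (OVA)-induced allergic asthma. Of the 22 samples of the series, 8 belong to this comparison, namely 3 from naive lung and 5 from naive colon. They were chosen by their labels alone, and the other 14 come from OVA-challenged mice given vehicle (Ova-veh) or RES (Ova-res). All were female BALB/c mice aged 6 to 8 weeks at the start, kept specific pathogen-free on normal chow, and each group was held in its own isolated cages. The methods describe the OVA injection for each mouse and give no separate treatment for the naive group. Whether a lung and a colon sample of the same number came from 1 animal is not stated. DNA was prepared from 500 mg of lung tissue with a bead-lysis kit and from a flush of the colon with a stool kit, so tissue, DNA kit and table of values cannot be told apart in any comparison below. No extraction blank or other negative control was analysed here.

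The mouse colon holds a dense community of fermenting anaerobes, most of them in the phyla Firmicutes and Bacteroidetes. Bacteroidetes break down dietary and mucosal polysaccharides, and many Firmicutes turn the products into short-chain fatty acids such as butyrate. The lower airways hold few bacteria by comparison, brought in largely by inhalation and by small aspirations from the mouth and upper airway. A 16S rRNA amplicon survey gives shares of reads within a sample and no bacterial load, so a higher share of one taxon and a lower amount of the others cannot be told apart.

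The authors deposited, for each tissue, the fraction of reads of a mouse assigned to each taxon, rounded to 3 decimals, which is a step of 0.1% of reads. A taxon listed at 0 thus held under 0.05%, and read numbers, hence depth, are unknown. The lung table has 40 rows and 37 distinct lineages from 8 phyla, and the colon table has 32 rows and 29 lineages from 6 phyla. The lineages that end at Clostridiales, at Lachnospiraceae and at Ruminococcaceae fill 2 rows each in either table, and these were summed. By full lineage, 26 taxa stood in both tables, 11 in the lung table only and 3 in the colon table only. The listed taxa covered 96.4 to 97.3% of reads in the naive lung samples and 97.6 to 98.6% in the naive colon samples. The taxa in both tables made up 92.4 to 93.2% of lung reads and 97.5 to 98.1% of colon reads, while those of one table only made up 4.0 to 4.1% in lung and 0.1 to 1.0% in colon. No pair of samples of one tissue had identical values.

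Lung and colon shared the same main phyla in different proportions. Bacteroidetes held 37.3, 38.8 and 37.8% of reads in the 3 lung samples, against 55.9, 52.3, 64.5, 57.1 and 59.3% in the 5 colon samples. Every lung sample lay below every colon sample, and the lung mean was 0.657 times the colon mean (38.0% ± 0.764, SD, n = 3, against 57.8% ± 4.51, SD, n = 5). Firmicutes held 51.9, 51.1 and 51.3% in lung, against 40.1, 44.2, 30.8, 37.4 and 36.7% in colon, with every lung sample above every colon sample; on a centred log-ratio over the 6 phyla in both tables, however, the sign turned (-0.29 on the log2 scale, exact permutation p = 0.268). The ratio of Firmicutes to Bacteroidetes was 1.32 to 1.39 in lung and 0.478 to 0.845 in colon. Both phyla together held 89.1 to 89.9% of lung and 94.5 to 96.5% of colon reads.

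The smaller phyla took up a larger part of the lung community. Proteobacteria, gram-negative bacteria that include many facultative species, held 2.3, 2.7 and 2.5% in lung against 1.1, 0.5, 0.3, 0.8 and 0.5% in colon. Deferribacteres, known in the mouse for a spiral mucus-dwelling species, held 2.4, 2.0 and 2.2% in lung against 0.6, 0.6, 0.4, 0.3 and 0.4% in colon. The lung mean was 3.91 times the colon mean for Proteobacteria and 4.78 times for Deferribacteres, and neither overlapped between tissues. TM7, tiny bacteria that live attached to other bacteria, held 0.9 to 1.0% in lung and 0.3 to 2.6% in colon. Tenericutes, which lack a cell wall, held 0.2% in each lung sample and 0 to 0.7% in colon. Verrucomicrobia (1.4% in each lung sample) and Actinobacteria (0.1% in each) are listed for the lung only.

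**Figure D1:**
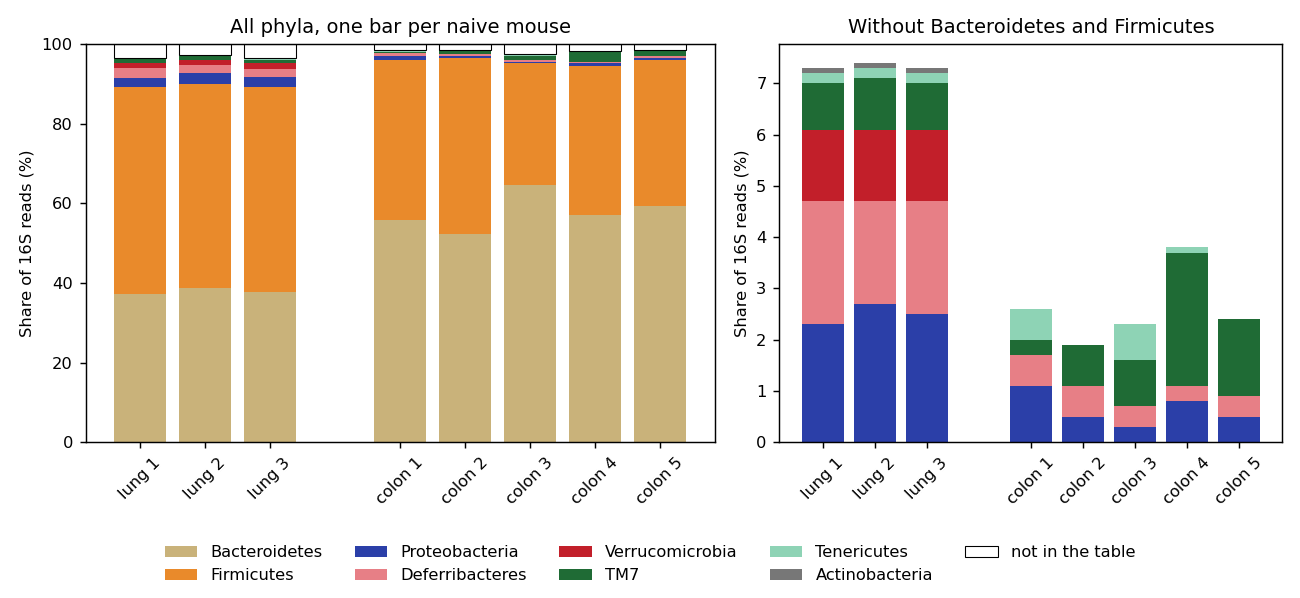
Share of 16S reads (%) of each phylum in the 3 naive lung samples and the 5 naive colon samples, one bar per sample, with all phyla in the left panel and the 6 smaller phyla alone, on an enlarged axis, in the right panel. Bacteroidetes lie between 37.3 and 38.8% in lung and between 52.3 and 64.5% in colon; Verrucomicrobia and Actinobacteria are not listed in the colon table, which is not a measured 0.

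Differences of single phyla, orders and families were tested by exact permutation (two-sided, 56 labelings) with Benjamini-Hochberg adjustment within a rank, where 0.0179 is the smallest p possible. Of the 6 phyla in both tables, 3 were higher in lung (50.0% of those tested) and 1 was lower (16.7%): Firmicutes, Proteobacteria and Deferribacteres were higher and Bacteroidetes lower (exact permutation p = 0.0179, adjusted 0.0268, each). TM7 and Tenericutes were not called (exact permutation p = 0.75 and 0.804). The 4 phylum calls rest on the number of samples. Without any 1 lung sample their adjusted exact p was 0.0714, without colon replicate 1, 4 or 5 it was 0.0571 to 0.0857, and without colon replicate 2 or 3 it was 0.0429.

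At the rank of family, 16 families stood in both tables, of which 6 were higher in lung (37.5%) and 3 lower (18.8%), each with an exact permutation p of 0.0179 and an adjusted p of 0.0317. Reads with no family made up 24.0 to 25.7% in lung and 18.6 to 27.6% in colon and stand outside these sums. Ruminococcaceae, a family of fibre-degrading anaerobes, held 16.8 to 19.3% in lung against 9.5 to 12.1% in colon. Odoribacteraceae averaged 7.4% ± 0.173 (SD, n = 3) in lung and 2.34% ± 1.00 (SD, n = 5) in colon. Desulfovibrionaceae, which reduce sulfate to hydrogen sulfide, averaged 1.57% ± 0.115 in lung and 0.48% ± 0.311 in colon (SD, n = 3 and 5), and Deferribacteraceae stand for their whole phylum. Erysipelotrichaceae averaged 1.20% ± 0.1 in lung and 0.26% ± 0.305 in colon (SD, n = 3 and 5), a direction that turned when shares were scaled over the taxa in both tables alone (-0.0865 percentage points, exact permutation p = 0.982), which leaves out its lung-listed genus Allobaculum. Clostridiaceae held 0.4, 0.5 and 0.6% in lung and are listed at 0 in all 5 colon samples. The 3 lower families were all Bacteroidetes: Prevotellaceae (2.50% in each lung sample against 8.2 to 11.4% in colon), Rikenellaceae (2.33% ± 0.252 against 9.14% ± 3.85) and Bacteroidaceae (2.30% ± 0.173 against 4.42% ± 1.03; SD, n = 3 and 5). S24-7, the largest family in both tissues, averaged 21.6% ± 0.3 in lung and 28.9% ± 3.75 in colon with no overlap, and missed the threshold after adjustment (exact permutation p = 0.0357, adjusted 0.0571). Lachnospiraceae, another family rich in butyrate producers, averaged 7.63% ± 0.404 in lung and 4.06% ± 1.96 in colon, also with no overlap (exact permutation p = 0.0536, adjusted 0.0779). Without any 1 sample, lung or colon, 0 families and 0 orders passed the adjusted exact test. This mostly reflects sample number, since the smallest exact permutation p rises to 0.0476 without a lung sample and 0.0286 without a colon sample. On the centred log-ratio over families, Ruminococcaceae, Desulfovibrionaceae and Erysipelotrichaceae kept their direction but were not called (exact permutation adjusted p = 0.0952, 0.0952 and 0.0714), and S24-7 was called lower (adjusted p = 0.0408).

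Of the 10 orders in both tables, 6 differed between the tissues (60.0%), with Bacteroidales lower in lung and the other 5 higher, each with an exact permutation p of 0.0179 and an adjusted p of 0.0298. Clostridiales, the order of most anaerobic Firmicutes, held 50.2, 49.5 and 49.7% in lung against 38.2, 42.6, 27.7, 36.9 and 35.3% in colon, a direction that turned on the centred log-ratio over orders (-0.17 on the log2 scale, exact permutation p = 0.536). Bacteroidales hold all Bacteroidetes listed, so their values are those of the phylum. Desulfovibrionales, Deferribacterales and Erysipelotrichales repeat the values of their single families, and RF32 is described with the taxa below. On that scale no order passed the adjusted test.

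The 26 taxa in both tables were tested together with limma on log2(percent + 0.05), where 0.05% is the largest share that rounds to a listed 0, at a Benjamini-Hochberg adjusted p under 0.05. Of these, 14 differed between the tissues (53.8% of those tested), with 9 higher in lung (34.6%) and 5 lower (19.2%). The median log2 difference over all 26 was 0.16. Lung and colon samples did not overlap for 9 taxa that were higher in lung (34.6%) and 4 that were lower (15.4%), and overlapped for 13. The split moved with the scale. Scaled to 100% over the taxa in both tables, 9 were higher and 3 lower, and on a centred log-ratio, which moved the median by -0.53, 8 were higher and 9 lower. The exact permutation test called the same number higher, 9, and 2 lower.

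**Figure D2:**
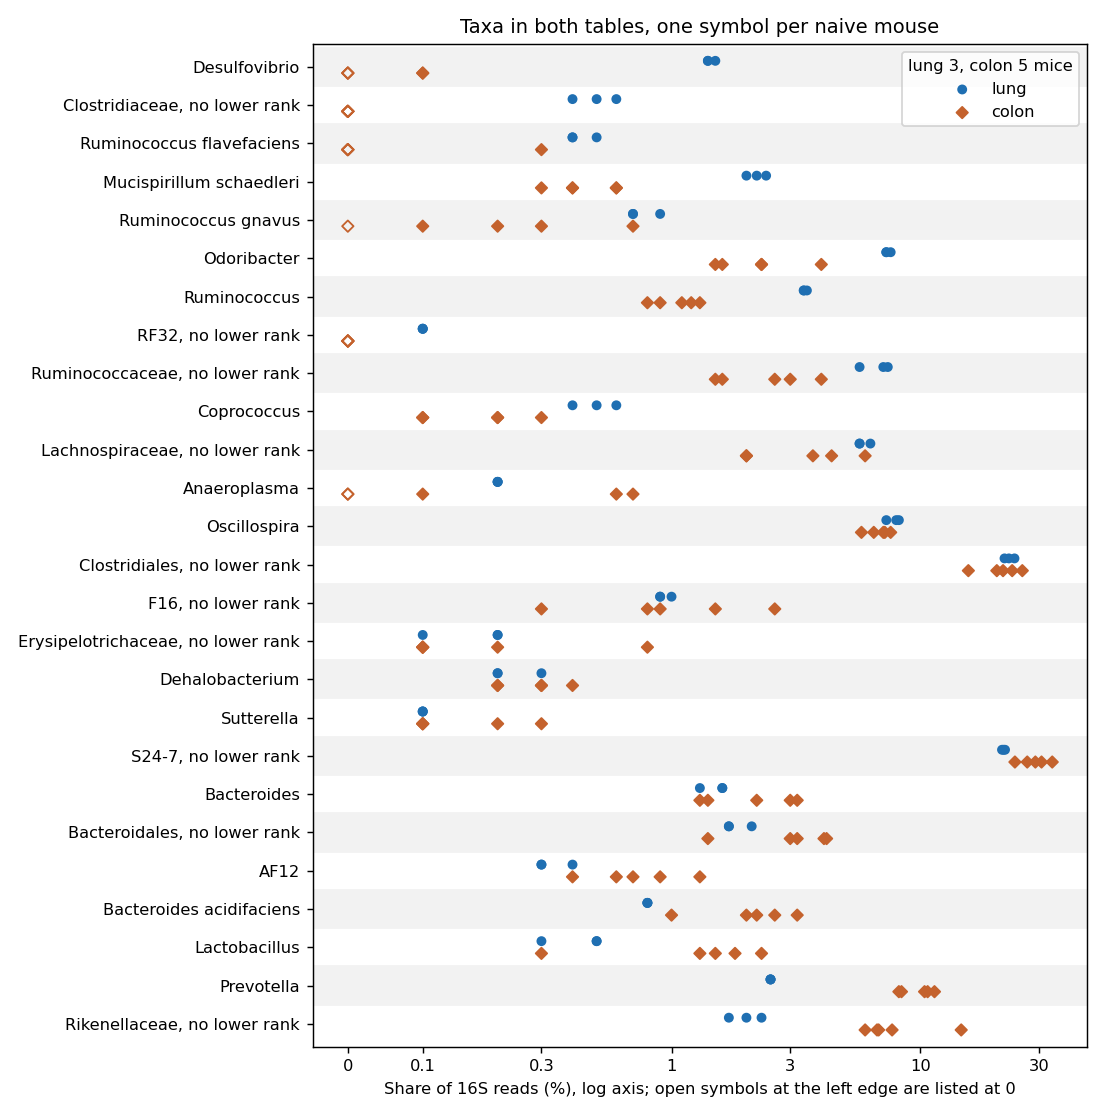
Share of 16S reads (%, log axis) of the 26 taxa in both tables, with 1 circle for each of the 3 naive lung samples above 1 diamond for each of the 5 naive colon samples; symbols of equal value lie on top of each other, and open symbols at the left edge are listed at 0. Taxa are ordered by their lung minus colon difference, and the lung symbols of a taxon lie closer together than its colon symbols for most taxa.

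Among the Firmicutes, the 5 taxa that differed were all higher in lung on the percent scale, while on the centred log-ratio Coprococcus was not called and Lactobacillus was called lower. Ruminococcus, which includes cellulose and starch degraders, held 3.4, 3.5 and 3.4% of lung reads against 0.8, 1.3, 0.9, 1.2 and 1.1% of colon reads. Every lung sample lay well above every colon sample, and the means differed by 3.24 times (log2 difference 1.67, standard error 0.162, limma adjusted p = 0.000132). Ruminococcaceae with no lower rank averaged 6.73% ± 0.907 (SD, n = 3) in lung and 2.54% ± 1.04 (SD, n = 5) in colon, 2.65 times higher (limma adjusted p = 0.0107). Coprococcus, a butyrate producer, held 0.4, 0.5 and 0.6% in lung and 0.1 to 0.3% in colon (limma adjusted p = 0.0116). Ruminococcus flavefaciens, a cellulose degrader, held 0.4, 0.5 and 0.4% in lung, against 0.3% in colon replicate 2 and a listed 0 in the other colon samples (log2 difference 2.70, standard error 0.705, limma adjusted p = 0.0155). This call was lost without lung replicate 2, and the size of the difference moved with the pseudocount, to 4.47 at 0.01% and 2.01 at 0.1%. With a replicate block, which matches samples by replicate number, R. flavefaciens and Ruminococcaceae with no lower rank were not called (limma adjusted p = 0.115 and 0.0648). Clostridiaceae with no lower rank are listed at 0 in every naive colon sample, so no fold is given; limma gave an adjusted p of 2.08e-07 from a group whose spread was removed by rounding.

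The Firmicutes that were not called include the largest taxon of the lung table. Clostridiales with no lower rank averaged 22.8% ± 1.05 (SD, n = 3) in lung and 21.3% ± 3.78 (SD, n = 5) in colon, a log2 difference of 0.12 with a 95% interval of -0.27 to 0.50, which turned to -0.42 on the centred log-ratio. Oscillospira, an anaerobe seldom grown in culture, averaged 7.83% ± 0.473 in lung and 6.84% ± 0.702 in colon, a difference of 0.20 (95% interval -0.047 to 0.44) that likewise turned, to -0.33. Lachnospiraceae with no lower rank stood at 5.90% ± 0.346 in lung and 3.62% ± 1.70 in colon (limma adjusted p = 0.112), and were called higher without colon replicate 2 (log2 difference 1.04, limma adjusted p = 0.0332). Of its 2 rows, the less abundant held 1.3, 1.4 and 1.3% in lung against 0 to 0.3% in colon, and it was called when the rows were kept apart and matched by abundance (log2 difference 3.13, limma adjusted p = 0.0039). Nothing in the tables says that the 2 less abundant rows are the same bacteria. Ruminococcus gnavus, a mucin degrader, held 0.7 to 0.9% in lung and 0 to 0.7% in colon (limma adjusted p = 0.093), and was called without colon replicate 2. Lactobacillus, a lactic acid producer, held 0.3 to 0.5% in lung and 0.3, 1.3, 1.5, 1.8 and 2.3% in colon in order of size (limma adjusted p = 0.093), where colon replicate 4 was the low sample and without it the taxon was called lower in lung. Dehalobacterium stood at 0.2 to 0.3% in lung and 0.2 to 0.4% in colon, and Erysipelotrichaceae with no lower rank at 0.1 to 0.2% in lung and 0.1 to 0.8% in colon.

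All 5 taxa called lower in lung were Bacteroidetes, of which 2 further taxa were not called and Odoribacter was higher. Prevotella, a genus that ferments plant polysaccharides, held 2.5% in each of the 3 lung samples, against 10.7, 8.2, 11.4, 10.4 and 8.4% in colon. The colon mean was 3.93 times the lung mean (log2 difference -1.94, standard error 0.129, limma adjusted p = 1.44e-05). Rikenellaceae with no lower rank held 1.7, 2.3 and 2.0% in lung against 6.0, 6.8, 14.6, 7.7 and 6.7% in colon (log2 difference -1.97, standard error 0.3, limma adjusted p = 0.00128), and their genus AF12 averaged 0.333% in lung against 0.78% in colon (limma adjusted p = 0.0387). Bacteroides acidifaciens, a commensal known in the mouse for promoting intestinal IgA, held 0.8% in each lung sample against 1.0, 2.6, 3.2, 2.2 and 2.0% in colon (log2 difference -1.31, standard error 0.347, limma adjusted p = 0.0155). S24-7, which break down host and dietary glycans, held 21.3, 21.9 and 21.6% in lung against 30.7, 26.9, 24.0, 29.0 and 33.9% in colon (log2 difference -0.41, standard error 0.116, limma adjusted p = 0.0198). Of these 5 calls, those of AF12, B. acidifaciens and S24-7 were lost without any 1 lung sample, which left 2, and by the exact permutation test (adjusted p = 0.133, 0.107 and 0.0774). AF12 was also lost without colon replicate 2 or 4. AF12 and S24-7 were lost when scaled over the taxa in both tables (limma adjusted p = 0.0508 each). S24-7 was lost with a mean of at least 0.5% and in the fit of all 6 groups (limma adjusted p = 0.0667 and 0.417), but kept on the centred log-ratio (0.00922). With a replicate block AF12, B. acidifaciens and S24-7 were all lost. The other Bacteroides averaged 1.5% in lung against 2.22% in colon, and Bacteroidales with no lower rank 1.83% against 3.18%, neither called (limma adjusted p = 0.278 and 0.134), though both were called lower on the centred log-ratio, and Bacteroidales also without colon replicate 1 (log2 difference -0.96, limma adjusted p = 0.00318).

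Odoribacter, a bile-tolerant genus known to make butyrate, went the other way. It held 7.3, 7.6 and 7.3% of lung reads against 2.3, 1.5, 4.0, 2.3 and 1.6% of colon reads, and no lung sample came near the highest colon sample. The lung mean was 3.16 times the colon mean (log2 difference 1.73, standard error 0.311, limma adjusted p = 0.00298). With a replicate block Odoribacter was not called (limma adjusted p = 0.0648). By mean share its rank was 4 among the lung taxa and 9 among the colon taxa.

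**Figure D3:**
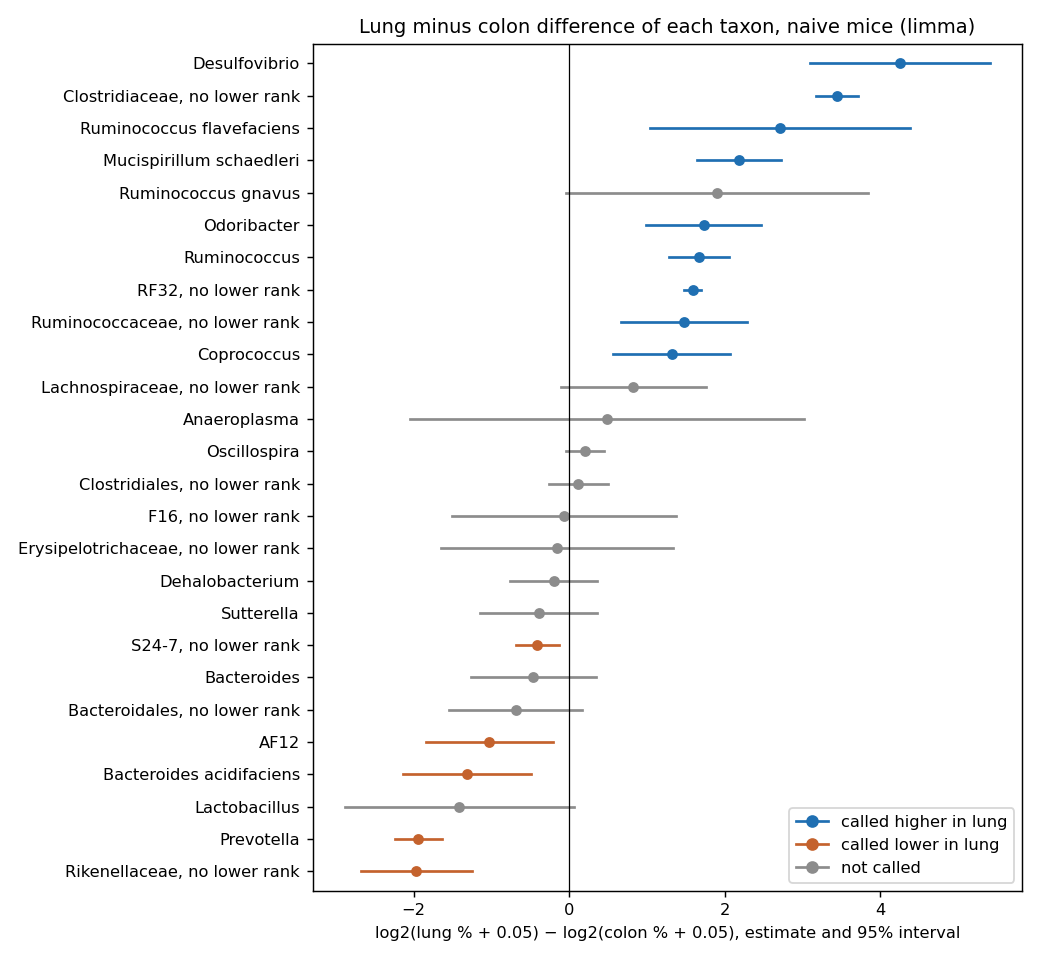
Difference between lung and colon of the 26 taxa in both tables on the log2(percent + 0.05) scale, with the limma estimate as a point and its 95% interval as a line, for 3 naive lung and 5 naive colon samples. The Desulfovibrio row, which leaves out the colon-listed Desulfovibrio C21 c20, lies highest at 4.26 and Rikenellaceae with no lower rank lowest at -1.97. The short lines of Clostridiaceae and RF32 come from values that rounding left at 0 in every colon sample.

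Desulfovibrio and Mucispirillum stood out among the smaller taxa. Desulfovibrio, a sulfate reducer, held 1.4, 1.5 and 1.4% of lung reads, against 0.1% in colon replicates 2 and 3 and a listed 0 in the other colon samples (log2 difference 4.26, standard error 0.487, limma adjusted p = 0.00025). The difference was 5.79 with a pseudocount of 0.01% and 3.54 with 0.1%. The colon table gives 2 further Desulfovibrionaceae lineages that the lung table does not list, Desulfovibrio C21 c20 and a row with no lower rank, and the lung table alone lists Bilophila of this family. Desulfovibrio C21 c20 carries the same genus name and held 0.6, 0.2, 0, 0.4 and 0.3% of colon reads. The log2 differences above thus cover the Desulfovibrio row alone and overstate the difference of the genus, which was not tested as a sum. The family sum was 3.26 times higher in lung. Mucispirillum schaedleri, which lives in intestinal mucus, held 2.4, 2.0 and 2.2% in lung against 0.6, 0.6, 0.4, 0.3 and 0.4% in colon (log2 difference 2.18, standard error 0.226, limma adjusted p = 0.000163). RF32, an order of Alphaproteobacteria, is listed at 0.1% in each lung sample and at 0 in each colon sample, a difference of 1 rounding step that limma nevertheless called (adjusted p = 2.08e-07). Sutterella held 0.1% in each lung sample and 0.1 to 0.3% in colon, and Anaeroplasma 0.2% in each lung sample and 0 to 0.7% in colon, neither called (limma adjusted p = 0.319 and 0.719), though Sutterella was called lower on the centred log-ratio. F16, the one TM7 family listed, had a log2 difference of -0.07 (95% interval -1.51 to 1.38) that turned to 0.0055 when scaled over the taxa in both tables.

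The 11 lineages listed for the lung only were led by Akkermansia muciniphila. This mucin degrader, the one Verrucomicrobia species listed, held 1.4% in each of the 3 lung samples and had rank 14 of the 37 lung taxa. Allobaculum, a fermenting genus of Erysipelotrichaceae, held 1.0, 0.9 and 1.2%. Haererehalobacter salaria, of the salt-loving Halomonadaceae, held 0.4, 0.5 and 0.4%, and Escherichia coli, a facultative Enterobacteriaceae species, held 0.2, 0.3 and 0.4%. Epulopiscium and Peptostreptococcaceae lay between 0.1 and 0.3%, Blautia producta, an acetate producer, at 0.2% in each sample, and Bilophila, known for growth on taurine from bile, at 0.1 to 0.2%. Coriobacteriaceae held 0.1% in each sample, while Dorea and Anaerostipes were at 0.1% in 1 sample each and listed at 0 in the other lung samples. Together the 11 lineages held 4.1, 4.1 and 4.0% of lung reads. No source used here states the minimum share for a taxon to be listed. The absence of a name from the colon table thus sets no firm limit on its share there. Its reads may lie outside the table or in listed rows with no lower rank, such as those of Lachnospiraceae and Erysipelotrichaceae. Reads outside the table made up 1.4 to 2.4% in colon, and 2.7 to 3.6% of lung reads were outside the lung table.

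The 3 lineages listed for the colon only were small and uneven between mice. Desulfovibrio C21 c20 held 0.6, 0.2, 0, 0.4 and 0.3%, Desulfovibrionaceae with no lower rank held 0.4, 0.1, 0.1, 0.1 and 0%, and Parabacteroides distasonis, a bile-tolerant gut commensal, held 0.1% in replicate 2 and a listed 0 in the others. They summed to 1.0, 0.4, 0.1, 0.5 and 0.3% of colon reads. None of them was above 0 in all 5 colon samples, whereas 9 of the 11 lung-listed lineages were above 0 in all 3 lung samples.

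**Figure D4:**
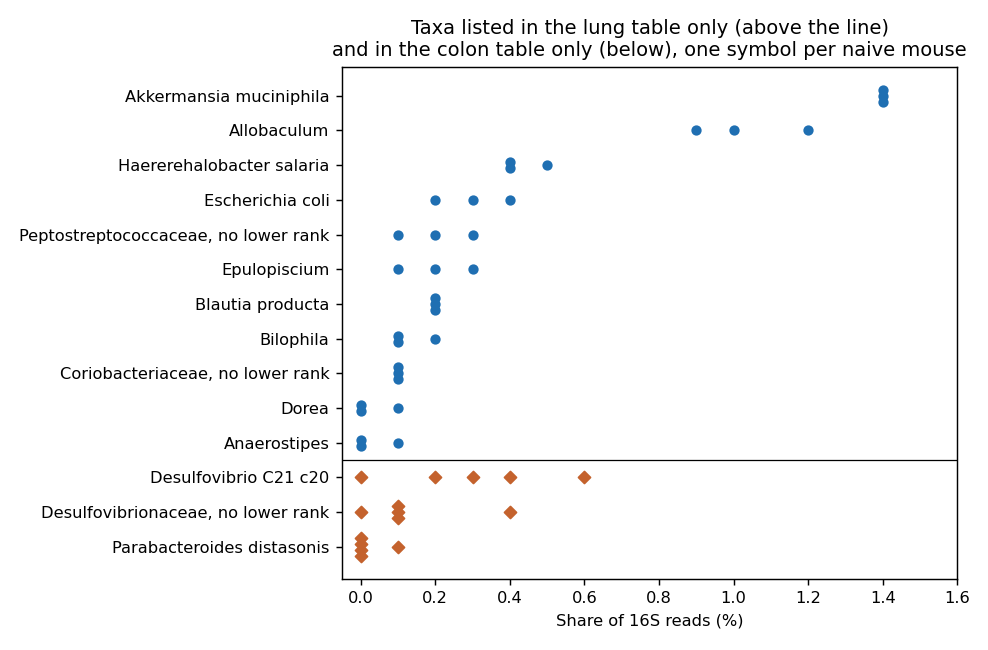
Share of 16S reads (%) of the 11 taxa listed in the lung table only (circles, 3 naive lung samples) and of the 3 taxa listed in the colon table only (diamonds, 5 naive colon samples), one symbol per sample. Akkermansia muciniphila at 1.4% and Allobaculum at 0.9 to 1.2% lie apart from the other lung-listed taxa, which reach 0.5% at most.

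The order of the taxa began with the same pair in both tissues and differed from rank 3 on. S24-7 and Clostridiales with no lower rank were the leading pair in both tissues, with Clostridiales first in lung and S24-7 first in colon, and their shares overlap between mice for Clostridiales. Together the leading pair averaged 44.4% of lung and 50.2% of colon reads. In lung they were followed by Oscillospira (7.83%), Odoribacter (7.4%), Ruminococcaceae with no lower rank (6.73%), Lachnospiraceae with no lower rank (5.90%), Ruminococcus (3.43%) and Prevotella (2.50%). In colon they were followed by Prevotella (9.82%), Rikenellaceae with no lower rank (8.36%), Oscillospira (6.84%), Lachnospiraceae with no lower rank (3.62%) and Bacteroidales with no lower rank (3.18%). Prevotella thus had rank 8 in lung and rank 3 in colon, and Rikenellaceae rank 10 in lung and rank 4 in colon. Of the 5 taxa with the highest mean, 3 were the same in both tissues, and of the 10 highest, 8 were the same in both tissues, with Ruminococcus and M. schaedleri in the lung list alone and Bacteroidales with no lower rank and Bacteroides in the colon list alone. Over the 26 taxa in both tables, Spearman's rho of the mean shares was 0.78. For single samples it ran from 0.687 to 0.838 over the 15 lung and colon pairs, from 0.987 to 0.992 over the 3 lung pairs and from 0.883 to 0.980 over the 10 colon pairs. These correlations describe taxa that sum to a nearly fixed total, not replicates.

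As whole communities the tissues were separated. Bray-Curtis distances (0, same shares; 1, no taxon in common) were computed over the 26 taxa scaled to 100%. They had a median of 0.265 between lung and colon samples (0.198 to 0.325), against 0.0325 among lung samples (0.0257 to 0.0424) and 0.133 among colon samples (0.0890 to 0.208). Tissue accounted for 71.6% of the variation in a distance-based test of how much lies between groups (exact permutation p = 0.0179 over 56 labelings, the smallest possible). Such a test also responds to unequal spread within groups, which is described below, so its p does not measure position alone. On the first principal coordinate (74.4% of the variation) all lung samples lay on one side and all colon samples on the other, and the second (15.1%) set colon replicate 3 apart. Pairs of the same replicate number were no nearer than others, with distances of 0.265, 0.198 and 0.323 for the 3 same-numbered pairs and a median of 0.263 over the 12 other pairs. Without colon replicate 3, the colon sample farthest from its group, tissue accounted for 82.8% (exact permutation p = 0.0286).

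The 3 lung samples differed far less among themselves than the 5 colon samples. A legend of the study says that a setting of Nephele left some mice out of a plot of the lung samples, so the lung samples may be those that remained after an exclusion, whose part in the spread was not tested. The distance of a sample to the centre of its group, corrected for group size, was 0.0165, 0.0253 and 0.0290 in lung, against 0.0994, 0.0921, 0.159, 0.0639 and 0.0872 in colon. Every lung value lay below every colon value, with a mean difference of -0.0767 (exact permutation p = 0.0179, the smallest possible). Without colon replicate 1 the exact permutation p was 0.0571. The SD over mice was lower in lung for 21 of 26 taxa and higher for 4. Among the 13 taxa with a mean of at least 0.5% in both tissues, the coefficient of variation had a median of 5.87% in lung (0 to 15%) and 36.9% in colon (10.3 to 72.3%), and it was lower in lung for each of the 13. The 3 lung samples had the same rounded share for 5 taxa, Prevotella, B. acidifaciens, Anaeroplasma, Sutterella and RF32. Depth, which bears on such a spread, is unknown for both tissues, and its part in the difference was not tested.

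**Figure D5:**
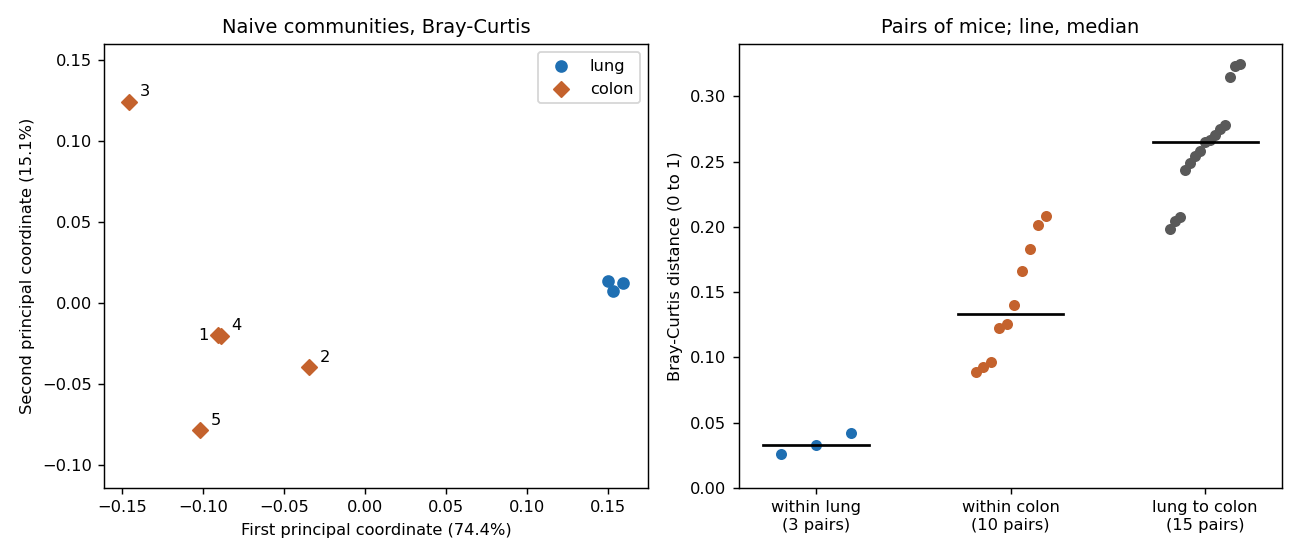
Left, principal coordinates of Bray-Curtis distances over the 26 taxa in both tables for 3 naive lung samples (circles) and 5 naive colon samples (diamonds, with replicate numbers), axes labelled with their share of the variation. Right, the distances of all pairs within lung, within colon and between the tissues with their medians as lines, 0.0325, 0.133 and 0.265; the pairs within lung all lie below those within colon.

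Both tissues were set against lists of bacteria typical of each site. Of 24 genera known from airways, skin or laboratory reagents, such as Streptococcus, Staphylococcus, Pseudomonas and Ralstonia, Prevotella was the single one listed in either table, and its shares were lower in lung. Prevotella also falls under the intestinal families below. Genera were matched by name alone. The list holds Halomonas, so Haererehalobacter salaria of the Halomonadaceae, at 0.4 to 0.5% in lung and not listed for the colon, was not counted. Families of intestinal anaerobes, 15 of the 16 listed names, held 68.3 to 70.6% of lung and 68.4 to 75.0% of colon reads. Of their 19 taxa in both tables, 8 were higher in lung, 5 lower and 6 not called, against 34.6% and 19.2% over all taxa tested. The list named butyrate-associated takes in the whole families Odoribacteraceae, Lachnospiraceae and Ruminococcaceae. It thus counts members described above by other traits, such as Blautia producta, Ruminococcus gnavus and R. flavefaciens, and butyrate production was not tested. These families held 32.2 to 34.3% of lung and 14.4 to 20.4% of colon reads. Of the 8 of their taxa that both tables list, 5 were higher in lung, 0 lower and 3 not called, beside the same 34.6% and 19.2% over all taxa tested. Their median log2 difference was 1.57, beside 0.16 over all 26. Gram-negative phyla that bear lipopolysaccharide held 43.4 to 44.9% of lung and 53.4 to 65.2% of colon reads. Of their 12 taxa in both tables, 4 were higher in lung, 5 lower and 3 not called, beside 34.6% and 19.2% over all taxa tested. The 5 lower are the Bacteroidetes already described. Mucus-associated taxa held 5.5 to 6.2% in lung and 3.9 to 6.6% in colon. Of their 3 taxa in both tables, M. schaedleri was higher, B. acidifaciens lower and the other Bacteroides not called, and A. muciniphila is listed for the lung only. Of the 3 Proteobacteria in both tables, Desulfovibrio and RF32 were higher in lung and Sutterella was not called. For this list and the mucus-associated list the shares over all taxa are likewise 34.6% higher and 19.2% lower. Lactobacillus was the single lactic acid genus listed.

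The contrast between the tissues was then read in the 14 samples from OVA-challenged mice, 3 lung and 4 colon samples each of Ova-veh and Ova-res, which had received 250 µg OVA by injection and 50 µg by the nose, with 100 mg/kg RES by gavage in Ova-res. In Ova-res mice, 7 of the 9 taxa higher in naive lung and all 5 of those lower were on the same side with no overlap of samples, beside 42.3% and 30.8% of all 26 taxa without overlap in those directions. In Ova-veh mice it was 7 of 9 and 1 of 5, Rikenellaceae, beside 26.9% and 3.85%. The sign differed from that in naive mice for B. acidifaciens in Ova-veh mice, with 0.933% in lung and 0.9% in colon (log2 difference 0.35), and for RF32 in Ova-res mice, with 0.0333% in lung and 0.075% in colon (log2 difference -0.45). The Desulfovibrio row, M. schaedleri, Odoribacter, Ruminococcus, Coprococcus and Clostridiaceae were higher in lung with no overlap in all 3 conditions, while RF32 overlapped in both OVA groups. Prevotella averaged 2.43% in lung and 7.00% in colon in Ova-veh mice, where single samples overlapped, and 2.57% and 9.40% in Ova-res mice. The difference between the naive and the OVA contrasts was tested with limma in one fit of all 6 groups. It was called for 0 of 26 taxa against Ova-veh (smallest adjusted p = 0.159) and 0 of 26 against Ova-res (smallest adjusted p = 0.308), with 2 at an unadjusted p under 0.05 in each. These were Clostridiaceae and B. acidifaciens against Ova-veh, and RF32 and M. schaedleri against Ova-res. The log2 difference of Clostridiaceae was 3.44 in naive and 1.62 in Ova-veh mice. That of M. schaedleri was 2.18 in naive and 4.16 in Ova-res mice. Of the 11 lung-listed lineages, A. muciniphila held 1.1 to 1.7% and Allobaculum 0.7 to 1.4% of reads in the 6 lung samples of OVA-challenged mice.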

How the data were processed

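Lung tissue and colon contents of 3 and 5 naive mice were profiled by 16S rRNA amplicon sequencing. The authors classified reads into operational taxonomic units on Nephele and deposited the fraction of reads per taxon and mouse. The pipeline version, the taxonomy and the minimum share of a listed taxon are not stated in the sources at hand. Fractions were multiplied to percent, rows of one lineage summed, and lineages matched between tables or summed by phylum, order and family. Each value is a share of its own sample, so no scaling over a table entered. Whether samples of one group come from separate mice rests on their labels.

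Exact permutation tests were run in Python 3.11.15 (numpy 2.4.6, scipy 1.17.1, pandas 2.3.3), and limma 3.58.1 in R 4.3.3 with default moderation. Both were tested on simulated data. Figures were drawn with matplotlib 3.10.9. Alternatives were pseudocounts of 0.01 and 0.1%, a mean of at least 0.5%, 2 scalings, a fit of all 6 groups, rows kept apart, other distances, a replicate block and leaving out each mouse. The taxa named are every phylum, those of one table, the 10 most abundant of each tissue, up to 10 called taxa with the largest difference in each direction, and members of the lists. The comparison and lists were chosen with earlier results of these data known.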

Additional observations from a re-analysis of the deposited data

Results flagged for a closer look

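Within the 5 naive colon samples, 63 values (taxa, phyla, orders, families and the distances to the group centre) were searched for a sample far from the rest by Dixon's test at 95%, and 10 were found. Several are the same reads at 2 or 3 ranks. The test's chance rate of about 1 in 20 is meant for continuous values and need not hold for rounded shares with listed zeros. A single sample above 0 among listed zeros is flagged whatever its size. Colon replicate 3 was the high sample for Rikenellaceae, at 14.6% for the row with no lower rank (next 7.7%) and 15.9% for the family (next 8.6%). The same sample was high for Bacteroidaceae at 6.2% (next 4.2%) and for Erysipelotrichaceae at 0.8% (next 0.2%), as the row with no lower rank, the family and the order Erysipelotrichales alike. Colon replicate 2 was the one sample above 0 for Ruminococcus flavefaciens at 0.3% and for Parabacteroides distasonis and its family Porphyromonadaceae at 0.1%. Colon replicate 1 held 0.4% of Desulfovibrionaceae with no lower rank, with the next sample at 0.1%. The lung group of 3 is too small for this search.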

How the results depend on the processing

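With the other pseudocounts the calls were the same 9 higher and 5 lower, but the size moved for taxa at or near 0 in colon. A mean of at least 0.5% left 17 taxa, with 5 higher and 4 lower. The fit of all 6 groups gave 10 higher and 4 lower. Scaled over the taxa in both tables, 3 were called lower; on the centred log-ratio, 9; with the exact permutation test, 2; with a replicate block, 3, and 8 of 14 calls were kept. Leaving out single mice gave 8 to 11 higher and 2 to 6 lower. The deviations of same-numbered lung and colon samples from their group means had r = 0.204, 0.0766 and -0.357 over 26 taxa. These values cannot decide whether such samples came from 1 animal, so whether the block reflects a true pairing is unknown. With the block, 0 phyla, 0 orders and 0 families were called, and none could be, since 0.25 is the smallest exact permutation p that 3 pairs allow. Tissue accounted for 73.6% (exact permutation p = 0.25, again the smallest possible). On the centred log-ratio 0 orders were called. Leaving out single mice gave 0 to 4 phyla, 0 orders and 0 families, since fewer mice raise the smallest p, and a spread difference of -0.0886 to -0.0546 (exact permutation p up to 0.0571).

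Directions turned for small differences. On the centred log-ratio, Clostridiales with no lower rank stood at -0.42, Oscillospira at -0.33, Anaeroplasma at -0.049, Firmicutes at -0.29, the order Clostridiales at -0.17 and Anaeroplasmataceae at 0.066. Scaled over shared taxa, F16 stood at 0.0055 and Erysipelotrichales and Erysipelotrichaceae at -0.0865 points. With the block, F16 stood at 0.58, Anaeroplasma at -0.21, and TM7, CW040 and the family F16 at 0.267 points. Without single mice, Erysipelotrichaceae with no lower rank ranged from -0.32 to 0.31 (0.089 without lung replicate 3), F16 from -0.46 to 0.27 (0.078 without colon replicate 5), Tenericutes, Anaeroplasmatales and Anaeroplasmataceae from -0.15 to 0.025 points, and TM7, CW040 and the family F16 from -0.517 to 0.0583 points. The causes were not tested. Depth is unknown, and rounding to 0.1% limits taxa under about 0.5%.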
